A study of Mus musculus with 24 samples.

Results

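The 42 genes described here encode transcription factors whose expression marks regions of the brain: cortex and hippocampus (12 genes), olfactory bulb (2), striatum and ventral forebrain (11), thalamus (4), hypothalamus (3), cerebellar granule cells (5) and midbrain and hindbrain (5). They were listed by name out of 53465 genes counted, with earlier results of these data known. Brain RNA was sequenced from 6 mice of CAST/EiJ (a wild-derived inbred strain of Mus musculus castaneus) and 6 of WSB/EiJ (one of Mus musculus domesticus), written CAST and WSB below with each animal's number. The comparison asks which genes differ in expression between 2 strains that form infarcts of different volume when a cerebral artery is blocked. The labels name no surgery, sex, age or dissection, and give the tissue only as brain.

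These factors form a code that divides the embryonic brain. Signals from organising centres set up overlapping domains of homeodomain, T-box, bHLH, LIM-homeodomain and zinc-finger factors, and pairs of them repress or activate each other to sharpen the borders. Many are kept in adult neurons, where they hold the identity of a cell class: Tbr1 and Fezf2 in deep cortical layers, Cux2 and Rorb in upper layers, Bcl11b in striatal and subcerebral projection neurons, Tcf7l2 in thalamus, Otp and Sim1 in hypothalamus, and Zic1 and Pax6 in cerebellar granule cells. Because each is restricted in space, its level in RNA of a whole brain depends both on expression per cell and on how much of each region the RNA came from. Fewer cells of a type and less RNA per cell cannot be told apart in these libraries.

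Reads in genes numbered 32982569 to 46513232 per animal. Levels are CPM (read counts scaled to the size of the library, with TMM factors), and strain differences are log2 CAST minus WSB with their SE. Gene length was not divided out, so levels are compared between animals and not between genes. Brain markers were present in every animal: the summed CPM of 4 neuron markers was 4561 to 5927. The libraries CAST_142 and WSB_100 stood apart. The summed CPM of 8 cerebellum markers was 1518 in CAST_142 and 121.8 to 193.2 in the other 11 animals. In those 11 animals most of the sum was Calb1 (107 to 144 CPM). Cbln3 was at 11.9 CPM in CAST_170 and 9.26 CPM in WSB_120, and at 0.256 to 1.33 CPM in the rest of the 11. Gabra6 was at 11.5 CPM in CAST_170 and 6.58 CPM in WSB_120, and at 0 to 0.760 CPM in the rest. CAST_170 and WSB_120 thus also had raised levels of these markers, far below those of CAST_142. Pcp2 and Cbln1 of this list are at 0 reads in every animal. Their whole bodies lie inside other genes (Pet100 and Gm2694), so nothing is said of them. The summed CPM of 8 striatum markers was 362 in CAST_142 and 923 to 1904 in the others. In WSB_100 the 5 olfactory bulb markers summed to 222 CPM, against 15.1 to 56.2 in the others.

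Of the 42 members, 3 were at 0 reads in every animal, 2 had too few reads to be tested, and 37 were tested. A gene was called where its adjusted p was under 0.05 by the edgeR quasi-likelihood test with Benjamini-Hochberg adjustment. By this rule 2 of the 37 were called, Lhx2 and Ebf1, both higher in CAST. That is 5.41% of the tested members, where 42.7% of all 18425 tested genes were called. For calls higher in CAST the count was 2 members, and 21.5% of all genes. For calls lower in CAST it was 0 members, and 21.2% of all genes. At an unadjusted p under 0.05 there were 4 members, Lhx2, Ebf1 and Barhl2 higher and Tbx21 lower in CAST, and DESeq2 called 1 member lower, Tbx21. The CPM ranges of the strains were apart for 1 member, Ebf1, and for 27.1% of all genes. With CAST_142 and WSB_100 left out, 2 of 37 members were called, the same 2, and 46.6% of 18511 genes.

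The members varied more than most genes among animals of a strain. The median size of the log2 difference was 0.27 in members and 0.22 in all tested genes. The median SE was 0.35 in members and 0.10 in all tested genes, and the median SD within strains was 0.66 and 0.18 on the log2 scale. The median mean log2 CPM was 4.05 and 3.91. An SE over 0.5 was found for 12 members. The median SE of members was itself larger than the median size of the difference. A difference of the size common in these data was therefore not detectable for many members, and members not called are not shown to be equal between the strains. The log2 difference was positive in 23 members and negative in 14.

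**Figure D1:**
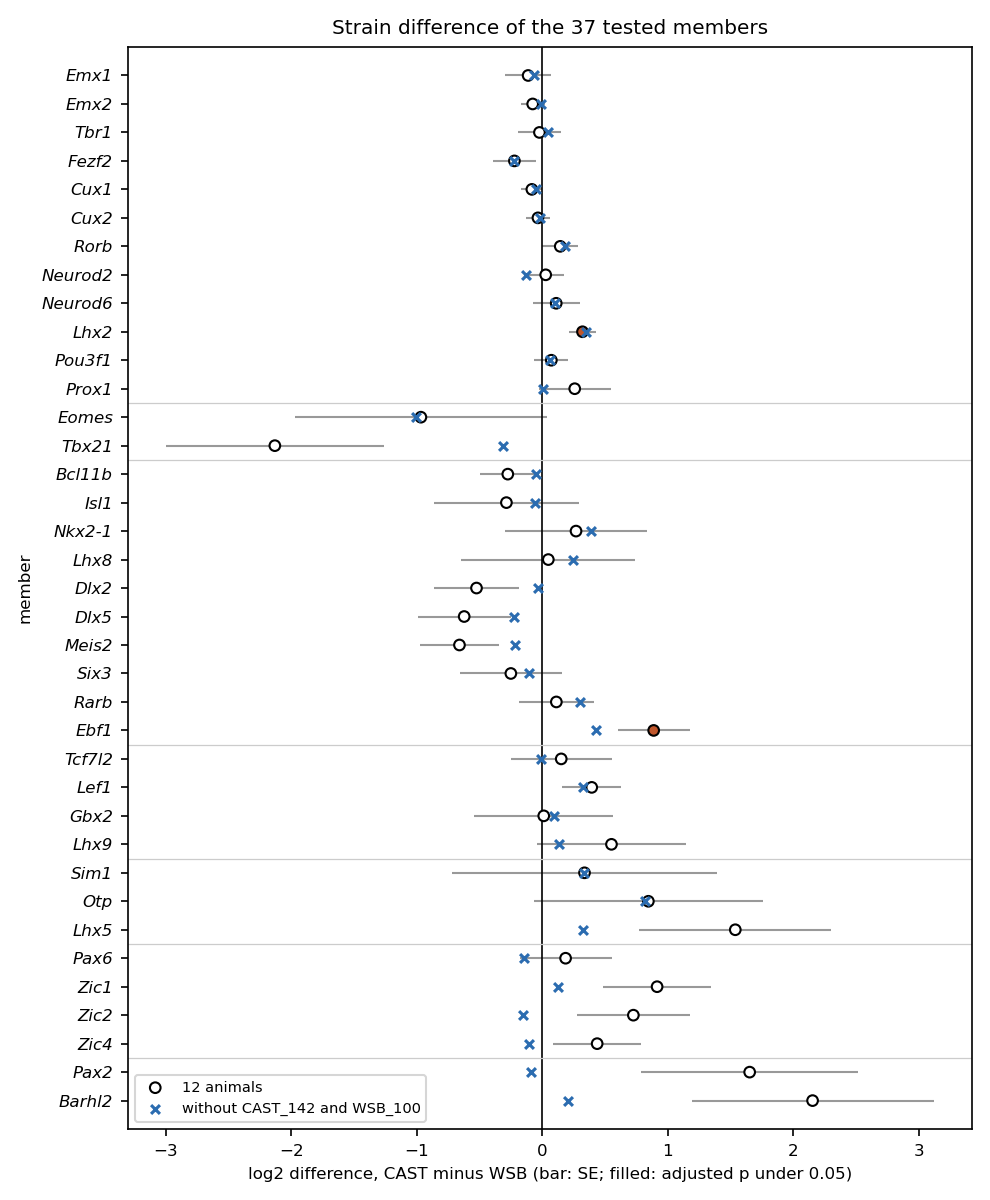
Log2 difference between the strains (x axis, CAST minus WSB, n = 6 each) for the 37 tested members, ordered by region on the y axis. Circles are the estimate over 12 animals with bars of 1 SE, filled where the adjusted p is under 0.05 (Lhx2 and Ebf1), and crosses are the estimate without CAST_142 and WSB_100. The cortical members lie between -0.22 and 0.32, and Tbx21, Pax2 and Barhl2 move toward 0 when the 2 libraries are left out.

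Lhx2, a LIM-homeodomain factor that selects cortical identity in the embryo and stays on in upper cortical layers, was the called cortical member. It lies at chr2:38339281-38369733 on the plus strand (GRCm38), and 82.4% of its body lies outside other genes. Its level was 35.6 CPM in the lowest, 47.8 in the median and 53.9 in the highest CAST animal. In WSB it was 31.4, 36.7 and 45.4 CPM. The ranges overlap: CAST_142 was the lowest CAST animal, and the other 5 were at 46.5 to 53.9 CPM, above all 6 WSB animals. The log2 difference was 0.32 ± 0.11 (SE; adjusted p = 0.0269). It was 0.35 without CAST_142 and WSB_100 (adjusted p = 0.00614). The adjusted p was 0.0529 to 0.0641 when CAST_170, CAST_201, WSB_100, WSB_138 or WSB_147 alone was left out, and 0.0615 on lane 5 alone. The 6 cortex and hippocampus markers summed to 1500 to 2375 CPM in CAST and 2063 to 2858 CPM in WSB, with 0 called higher and 2 lower in CAST. Their part in the result was not tested.

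The other 11 cortical and hippocampal members were not called, and as a group they were the steadiest, with a within-strain SD of 0.16 to 0.57 on the log2 scale. Cux2, a homeodomain factor of upper layers and the member of this group with most reads, was at 123.4, 150.9 and 164 CPM in the lowest, median and highest CAST animal. In WSB it was at 119, 147.4 and 178.5 CPM. The strains overlap almost wholly, and the log2 difference was -0.03 ± 0.09 (adjusted p = 0.793). Tbr1, the T-box factor of deep layers, was at 79.0 to 148 CPM in CAST and 87.1 to 164 CPM in WSB. It was lowest in CAST_142, CAST_202 and WSB_138, all under 89 CPM, and highest in WSB_169. Fezf2, a zinc-finger factor that specifies subcerebral projection neurons, was at 19.7 to 24.7 CPM in CAST and at 18.4 to 39.6 CPM in WSB, where WSB_120 and WSB_169 were the 2 highest. Those same WSB animals were also the highest of their strain for Neurod6 (70.7 and 69.5 CPM), a bHLH factor of cortical and hippocampal excitatory neurons. Rorb, the nuclear receptor of layer IV, Emx1, Emx2 and Cux1, homeodomain factors of the dorsal telencephalon, Pou3f1, a POU factor of projection neurons, and Neurod2 had log2 differences of -0.11 to 0.14. Prox1, the homeodomain factor of dentate granule cells, spread most in this group, from 14.3 CPM in WSB_100 to 46.6 CPM in CAST_202.

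Ebf1, an early B-cell factor (helix-loop-helix type) of developing striatal projection neurons, was the other called member and the only one whose strain ranges were apart. It lies at chr11:44617317-45008091 on the plus strand. CAST animals were at 12.7, 13.9 and 41.5 CPM (lowest, median, highest) and WSB animals at 7.39, 10.0 and 11.7 CPM. CAST_142 was the high animal, and the other 5 CAST animals lay within 12.7 to 14.1 CPM. The log2 difference was 0.89 ± 0.29 (adjusted p = 0.0238). Without CAST_142 the size was 0.46 ± 0.11 (adjusted p = 0.00346), and without both libraries 0.43 (adjusted p = 0.00769). The adjusted p was 0.0522 without WSB_169 and 0.0573 with no filter on low counts. The 8 striatum markers, none of them called, summed to 362 to 1904 CPM in CAST and 1096 to 1846 CPM in WSB. The 5 choroid plexus and vessel markers, none called, summed to 228 to 611 CPM in CAST and 133 to 797 CPM in WSB. Most reads of that list were from the choroid plexus gene Ttr (179532, against 40538 for Flt1 and 12423 for Cldn5). The sum therefore says little of vessels. The part of both marker lists in the result was not tested.

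The 250 bases before a start of each called gene are shown because these were the members that differed between strains. They are the RefSeq sequence of the C57BL/6J reference (GRCm38.p6), 5′ to 3′ on the gene's strand, not that of CAST or WSB, and capitals mark CG dinucleotides, whose density separates CpG island promoters from others. The windows are chr2:38339031-38339280 (plus strand) and chr11:44617850-44618099 (plus strand).
Lhx2: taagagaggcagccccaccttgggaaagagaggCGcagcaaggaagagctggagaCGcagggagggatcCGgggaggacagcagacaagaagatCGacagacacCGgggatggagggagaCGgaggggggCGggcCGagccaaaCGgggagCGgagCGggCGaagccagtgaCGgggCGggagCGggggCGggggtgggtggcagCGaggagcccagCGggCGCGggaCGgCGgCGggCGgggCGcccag
Ebf1: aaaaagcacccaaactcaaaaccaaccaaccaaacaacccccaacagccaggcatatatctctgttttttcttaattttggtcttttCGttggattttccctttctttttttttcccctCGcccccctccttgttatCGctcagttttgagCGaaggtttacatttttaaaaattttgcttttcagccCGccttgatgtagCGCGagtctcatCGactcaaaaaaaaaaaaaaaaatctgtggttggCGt
The Lhx2 window holds 25 CG dinucleotides and is 72.8% G and C. The Ebf1 window holds 9 and is 40% G and C. Both genes have 2 starts listed, and 1 is shown for each. The Ebf1 window lies inside the GENCODE gene body, after the first base of the gene, so its CG count is not that of the outermost start. RefSeq windows were found for 35 of the 42 members (47 windows), and their median was 14 CG dinucleotides, against 6 over all 32851 windows.

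The other striatal and ventral forebrain members were not called, and all 9 that were tested were lowest in CAST_142. Meis2, a TALE homeodomain factor of striatum and olfactory bulb interneurons and the member of this group with most reads (chr2:115863064-116065839, minus strand), was at 58.1, 168 and 193 CPM in CAST. In WSB it was at 127.5, 201.7 and 439.5 CPM. The low animal was CAST_142 and the high one WSB_100, and the log2 difference was -0.66 ± 0.31 (adjusted p = 0.108). Bcl11b, a zinc-finger factor of striatal projection neurons, was at 63.2 CPM in CAST_142 and at 128 to 230.1 CPM in the other 11 animals. Rarb, the retinoic acid receptor of striatum, was at 10.5 CPM in CAST_142 and 19.7 to 48.3 CPM elsewhere, and Six3, a homeodomain factor of striatal and eye precursors, at 2.30 and 11.2 to 30.6 CPM.

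Isl1, Lhx8 and Nkx2-1 mark striatal and cholinergic neurons and their precursors in the ventral forebrain, and shared 1 pattern. Isl1 was at 0.136 CPM in CAST_142, 1.57 CPM in WSB_120 and 3.29 to 9.31 CPM in the other 10 animals. Lhx8 had 0 reads in CAST_142, which allows up to 0.0678 CPM (3 reads, counting error only), 0.582 CPM in WSB_120 and 1.70 to 5.85 CPM elsewhere. Nkx2-1 was at 0.203 CPM in CAST_142, 0.658 CPM in WSB_120 and 1.20 to 5.72 CPM elsewhere. These 3 genes were lowest in the same 2 animals, 1 of each strain, and their log2 differences were -0.29 to 0.27 with SE of 0.57 to 0.69. Dlx2 and Dlx5, homeodomain factors of GABAergic neurons, were also lowest in CAST_142 (2.89 and 1.36 CPM) but highest in WSB_100 (21.5 and 16.5 CPM).

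Dlx6, the neighbour of Dlx5, is at 0 reads in every animal, and its whole body lies inside other genes, among them Dlx6os1 on the opposite strand. The counts cannot separate overlapping genes, so nothing is said of Dlx6. Dlx6os1, a long noncoding gene named here after its values were seen, was at 9.94, 40.1 and 43.9 CPM in CAST and 70.5, 101.8 and 201.9 CPM in WSB. The strains were apart, with a log2 difference of -1.70 ± 0.33 (adjusted p = 8.5e-04), and of -1.26 without CAST_142 and WSB_100 (adjusted p = 2.16e-05). Dlx5, on the other side of this locus, was not called (log2 difference -0.62 ± 0.37, adjusted p = 0.198).

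**Figure D2:**
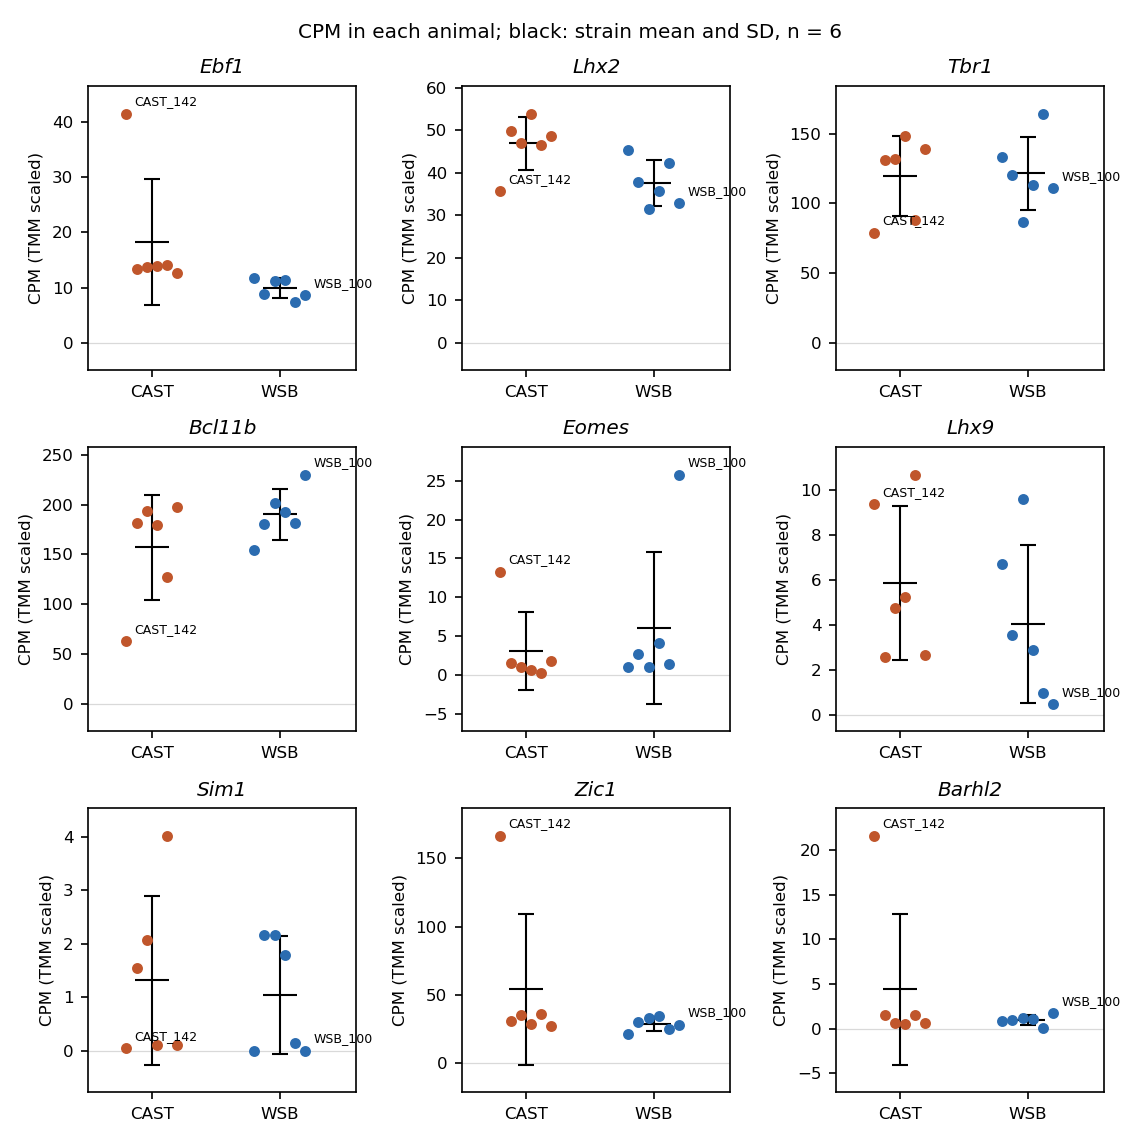
CPM (y axis, TMM scaled) of 9 members in each animal, by strain on the x axis. Points are animals, black bars the strain mean with its SD (n = 6), and CAST_142 and WSB_100 are labelled. Ebf1 is the panel in which the strains do not overlap, and CAST_142 alone is high for Zic1 (167 CPM) and Barhl2 (21.6 CPM).

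Eomes and Tbx21 are T-box factors of the mitral and tufted cells of the olfactory bulb, and both were highest in WSB_100. Eomes (chr9:118478212-118486132, plus strand) was at 0.245, 1.22 and 13.3 CPM in CAST and 0.935, 2.08 and 25.8 CPM in WSB. The high animals were CAST_142 and WSB_100, and the strains overlap (log2 difference -0.97 ± 1.0, adjusted p = 0.471). Tbx21 (chr11:97098071-97115331, minus strand) was at 0.277 to 1.06 CPM in CAST and 0.271 to 8.63 CPM in WSB. Tbx21 was not high in CAST_142 (0.294 CPM), unlike Eomes, which is also known in unipolar brush cells of the cerebellum. The log2 difference of Tbx21 was -2.13 ± 0.87 (adjusted p = 0.0639), and -0.31 without CAST_142 and WSB_100 (adjusted p = 0.653). DESeq2 called it (adjusted p = 0.0311), as did edgeR without CAST_203, WSB_120, WSB_138 or WSB_169 (adjusted p of 0.0412 to 0.0467). The 5 olfactory bulb markers, 1 of them called lower in CAST, summed to 15.1 to 56.2 CPM in CAST and 18.2 to 222 CPM in WSB, and their part was not tested.

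The start regions of Eomes and Tbx21, which were both high in WSB_100 and of which Eomes alone was high in CAST_142, are shown in the same way, at chr9:118477939-118478188 (plus strand) and chr11:97115332-97115581 (minus strand), with CG dinucleotides in capitals. The Eomes window ends before the start of the GENCODE gene, and its RefSeq start was not found in GENCODE transcripts.
Eomes: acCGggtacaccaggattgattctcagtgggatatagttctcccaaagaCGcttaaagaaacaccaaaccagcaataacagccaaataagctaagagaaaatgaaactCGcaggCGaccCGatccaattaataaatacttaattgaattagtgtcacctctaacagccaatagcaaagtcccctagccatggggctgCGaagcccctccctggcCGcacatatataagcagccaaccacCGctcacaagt
Tbx21: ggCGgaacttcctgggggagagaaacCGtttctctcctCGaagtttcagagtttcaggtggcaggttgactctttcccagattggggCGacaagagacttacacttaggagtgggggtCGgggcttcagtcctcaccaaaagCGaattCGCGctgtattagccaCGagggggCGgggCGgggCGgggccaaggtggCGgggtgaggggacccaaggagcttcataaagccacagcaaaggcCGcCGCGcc
They hold 8 (Eomes) and 16 (Tbx21) CG dinucleotides.

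The thalamic members were high in the same animals of both strains, and none was called. Tcf7l2, a transcriptional partner of beta-catenin that maintains thalamic identity (chr19:55741820-55933654, plus strand), was at 13.5, 27.6 and 54.4 CPM in CAST and 9.70, 22.0 and 48.8 CPM in WSB. CAST_202 and WSB_138 were highest, WSB_169 was lowest, and the log2 difference was 0.15 ± 0.40 (adjusted p = 0.790). Lef1, a relative of Tcf7l2, was at 6.30 to 14.5 CPM in CAST and 4.71 to 11.3 CPM in WSB, with the same 2 highest animals. Lhx9, a LIM-homeodomain factor of thalamic relay neurons, was at 10.7 CPM in CAST_202, 9.62 CPM in WSB_138 and 9.38 CPM in CAST_142, and at 0.486 to 6.70 CPM in the others. Gbx2, a homeodomain factor of developing thalamus, differed from the other 3 in CAST_142, where it was lowest (0.0904 CPM, against 0.163 to 1.81 CPM elsewhere). The 6 thalamus markers, none called, summed to 173 to 492 CPM in CAST and 143 to 492 CPM in WSB, and were likewise highest in CAST_202 and WSB_138.

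Sim1, Otp and Lhx5 mark neurons of the hypothalamus and neighbouring limbic nuclei, and Sim1 and Otp split the animals of each strain into high and low. Sim1, a bHLH-PAS factor of the paraventricular nucleus, was at 1.55, 2.06 and 4.03 CPM in CAST_170, CAST_200 and CAST_202 and at 0.0452 to 0.109 CPM in the other 3 CAST animals. In WSB it was at 1.80 to 2.17 CPM in WSB_135, WSB_138 and WSB_147 and at 0.140 CPM in WSB_169, and had 0 reads in WSB_120 and WSB_100, which allows up to 0.0759 and 0.0768 CPM. Otp, the homeodomain factor of the same neurons, was at 1.57 CPM or more in those 6 animals and at 0.478 CPM or less in the other 6, and was highest in CAST_202 (7.44 CPM). Lhx5 (chr5:120431699-120441223, plus strand), a LIM-homeodomain factor and the member of this group with most reads, was at 0.297, 1.75 and 12.1 CPM in CAST and 0.210, 1.22 and 2.02 CPM in WSB. It did not split the animals as Sim1 and Otp did: its highest animal was CAST_142, where both were low, and WSB_120 (1.14 CPM) lay close to WSB_147 (1.30 CPM). None of the 3 was called, with log2 differences of 0.34 to 1.54 and SE of 0.77 to 1.06. The 7 hypothalamus markers, none called, summed to 30.5 to 86.4 CPM in the 6 high animals and 7.51 to 13.9 CPM in the other 6.

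The cerebellar granule cell members were highest in CAST_142. Zic1, a zinc-finger factor of granule cell precursors and adult granule cells (chr9:91358058-91365810, minus strand), was at 27.3, 32.8 and 167 CPM in CAST and 21.5, 29.2 and 34.7 CPM in WSB. The strains overlap, and the log2 difference changed from 0.91 ± 0.43 (adjusted p = 0.106) to 0.12 without CAST_142 and WSB_100 (adjusted p = 0.473). Zic2 was at 115 CPM in CAST_142 and 17.0 to 23.5 CPM elsewhere, and Zic4 at 32.6 and 4.91 to 13.2 CPM. Pax6, the paired-box factor of granule cells, cortical progenitors and olfactory interneurons, was at 50.1 CPM in CAST_142, 29.3 CPM in WSB_100 and 12.3 to 16.6 CPM elsewhere. None of the 4 was called. Of the 8 cerebellum markers, 5 were tested and 3 called higher in CAST (Cbln3, Ppp1r17 and Il16), none of which was called without CAST_142 and WSB_100 (adjusted p of 0.214 to 0.844). They summed to 132 to 1518 CPM in CAST and 122 to 170 CPM in WSB. Neurod1, the bHLH factor of granule cells, is at 0 reads in every animal, with its whole body inside Cerkl, and nothing is said of it.

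Zic1 and Zic4 are neighbours on chromosome 9, transcribed from opposite strands with RefSeq starts 3204 bases apart, and both were high in CAST_142. Their gene models overlap, so that 56.2% of the Zic1 body and 84.1% of the Zic4 body lie outside other genes. The 250 bases before each start are shown at chr9:91365769-91366018 (minus strand) and chr9:91368722-91368971 (plus strand), with CG dinucleotides in capitals.
Zic1: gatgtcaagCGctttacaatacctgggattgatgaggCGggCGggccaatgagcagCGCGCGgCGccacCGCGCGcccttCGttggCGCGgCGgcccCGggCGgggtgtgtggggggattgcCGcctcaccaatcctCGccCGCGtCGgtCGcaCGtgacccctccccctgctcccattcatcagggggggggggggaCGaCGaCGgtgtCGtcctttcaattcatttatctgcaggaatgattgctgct
Zic4: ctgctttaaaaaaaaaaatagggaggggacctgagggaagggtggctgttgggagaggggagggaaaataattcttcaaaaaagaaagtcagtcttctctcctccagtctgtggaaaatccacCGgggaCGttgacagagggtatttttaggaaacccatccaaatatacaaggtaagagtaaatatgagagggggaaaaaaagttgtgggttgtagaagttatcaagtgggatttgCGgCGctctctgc
The Zic1 window holds 27 CG dinucleotides and the Zic4 window 4. The Zic4 window lies inside the GENCODE gene body (chr9:91362413-91389348), after the first base of the gene, so its CG count is not that of the outermost start.

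Motifs that the members themselves read were searched on both strands of the 300-base windows (250 before to 50 after a start). The letters AGGTGT, the T-box core, were in 5 of 47 member windows and 13.7% of all 32851. The E-box forms CAGATG and CAGCTG, read by bHLH factors, were in 7 and 6 member windows, against 17.2% and 16.3% of all. TAATTA, a homeodomain core, was in 2 member windows and 5.29% of all. CAGCTG and TAATTA read the same on both strands, and a match is a description only.

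Midbrain and hindbrain members were highest in CAST_142, or in WSB_120, and had few reads elsewhere. Barhl2, a homeodomain factor of dorsal midbrain, diencephalon and hindbrain neurons (chr5:106452523-106458166, minus strand), was at 0.486, 1.09 and 21.6 CPM in CAST and 0.0932, 1.03 and 1.77 CPM in WSB. The strains overlap, and the log2 difference was 2.15 ± 0.96 (adjusted p = 0.0902), and 0.21 without CAST_142 and WSB_100 (adjusted p = 0.767). Pax2, the paired-box factor of the midbrain-hindbrain border and of cerebellar interneurons, was at 6.71 CPM in CAST_142, 1.72 CPM in WSB_120 and 0.157 to 0.681 CPM elsewhere. Its log2 difference was 1.65 ± 0.87 (adjusted p = 0.145), and it was called without WSB_120 alone (2.63, adjusted p = 0.0328). It was -0.09 without CAST_142 and WSB_100. En1, the homeodomain factor of the same border, was not tested for want of reads: it was at 3.32 CPM in CAST_142, 0.724 CPM in WSB_138, 0.638 CPM in CAST_202 and 0 to 0.202 CPM in the others. Hoxb3, a HOX factor of hindbrain and spinal cord, had 23 reads in all, 18 of them in WSB_120. Hoxb5 is at 0 reads, with its whole body inside Hoxb5os. The 8 midbrain and hindbrain markers, 6 tested and 2 called higher in CAST (Slc6a2 and Dbh), summed to 46.0 CPM in CAST_142, 31.3 CPM in WSB_120 and 8.32 to 19.1 CPM in the others. Dbh was not called without CAST_142 and WSB_100 (adjusted p = 0.0647). Their part was not tested.

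The pattern across animals was then described with each strain's mean subtracted from log2 CPM, so that what is left is the spread among the 6 animals of a strain. Each animal had its own profile of regions. CAST_142 was above its strain mean in all 4 cerebellar granule cell members and both midbrain and hindbrain members, and in 1 of 10 striatal members. CAST_202 was above it in all 4 thalamic and 3 hypothalamic members and in 2 of 12 cortical members. In CAST_201 the reverse held for cortex and hypothalamus, with 12 of 12 cortical and 0 of 3 hypothalamic members above the mean. WSB_120 and CAST_201 were the animals with all 12 cortical members above the mean. WSB_169 had 9 of 12 cortical members above the mean and 0 of 10 striatal, 0 of 4 thalamic and 0 of 3 hypothalamic members.

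**Figure D3:**
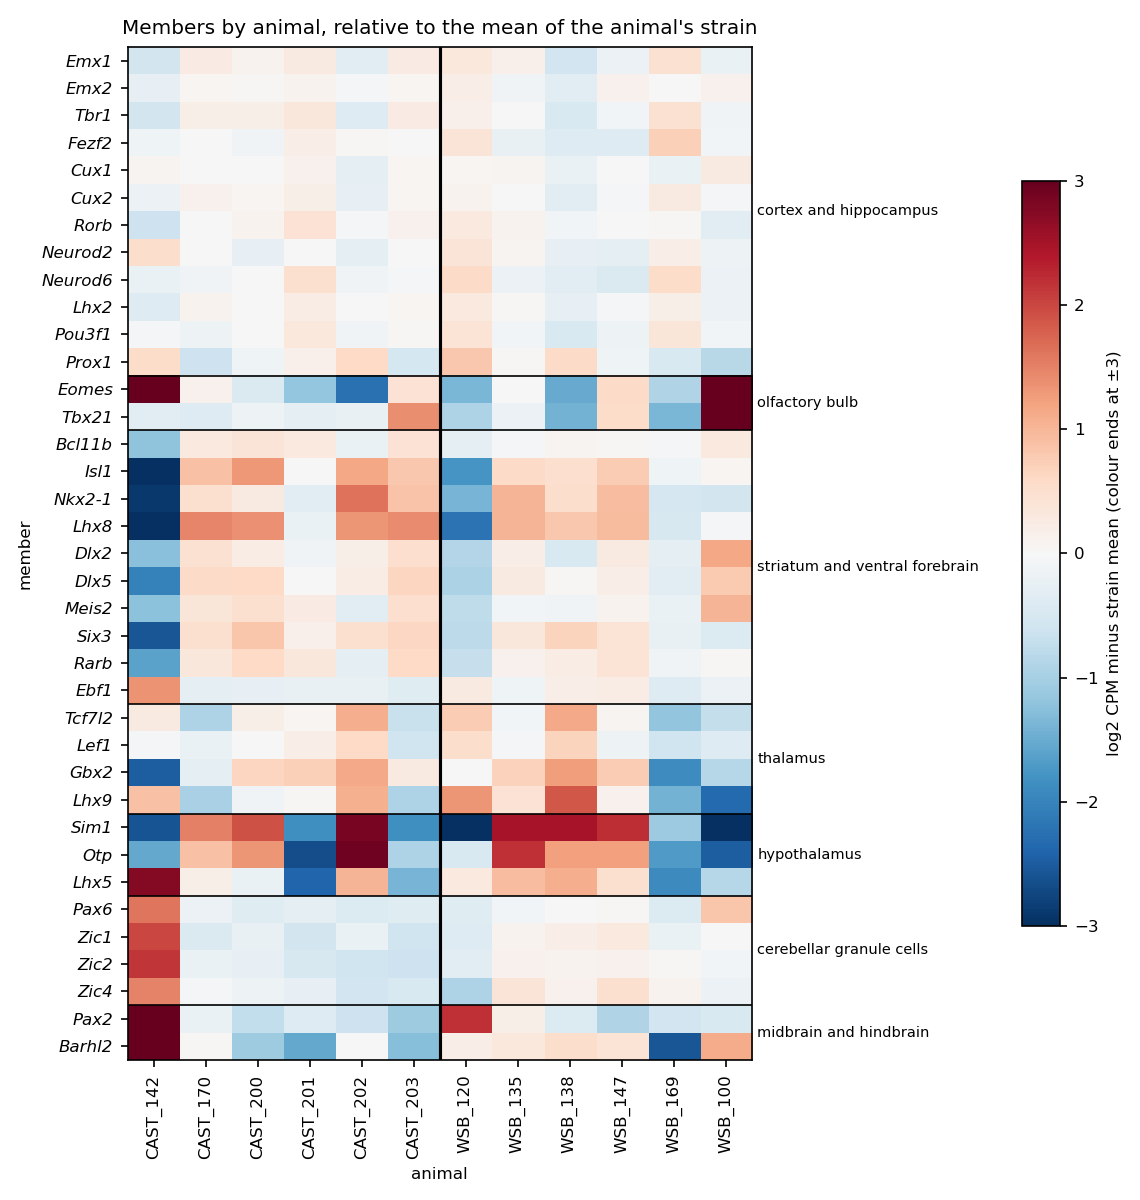
Log2 CPM of the 37 tested members (rows, by region) in each of 12 animals (columns) minus the mean of the animal's strain, from blue (below) through white to red (above), with colours ending at ±3. Blocks of one colour follow the regions: the 4 cerebellar granule cell members are red in CAST_142, and the 4 thalamic members are red in CAST_202 and WSB_138.

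**Figure D4:**
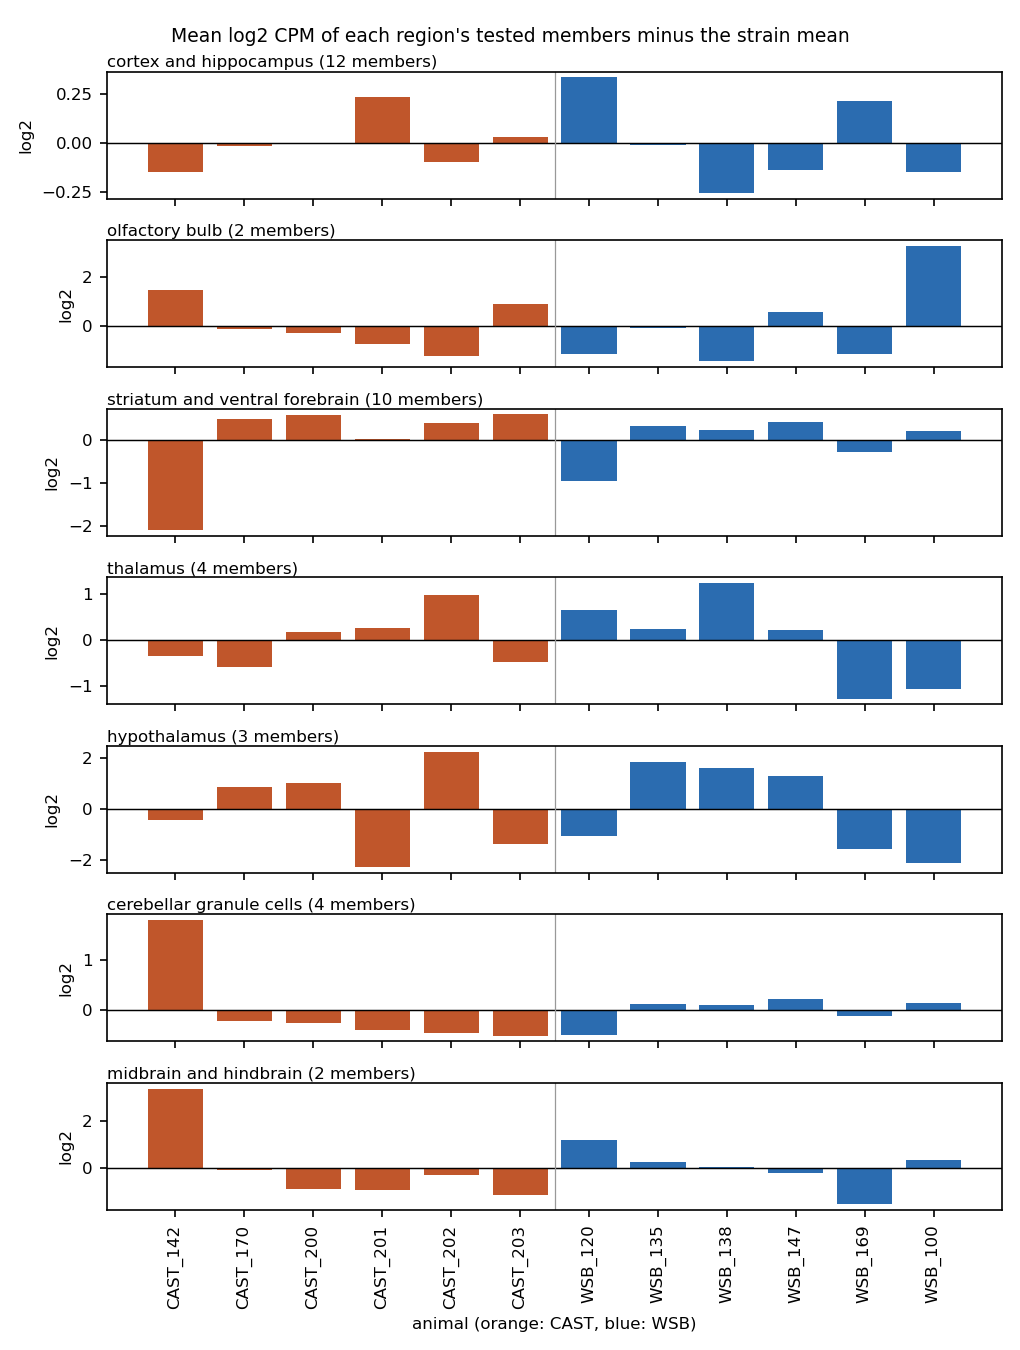
Mean over each region's tested members of log2 CPM minus the strain mean (y axes, each on its own scale) in the 12 animals (x axis, orange CAST, blue WSB). The cortex and hippocampus panel spans -0.25 to 0.33, the hypothalamus panel -2.30 to 2.27, and CAST_142 reaches 3.42 for midbrain and hindbrain.

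Members of a region mostly moved together among the animals, and members of different regions mostly did not. Over the 128 pairs of members of the same region the median Pearson r was 0.67, and 42 pairs (32.8%) had r of at least 0.8. Over the 538 pairs of different regions the median was -0.20 and 12 pairs (2.23%) reached 0.8. Among all 169731100 pairs of tested genes, 1.16% reached 0.8. Without CAST_142 the medians were 0.61 and -0.21. Of these pairs 26.6% and 2.97% reached 0.8, against 0.76% of all pairs of tested genes. These are descriptions over 12 points, since all genes share the same libraries and their depths, and no p is given.

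**Figure D5:**
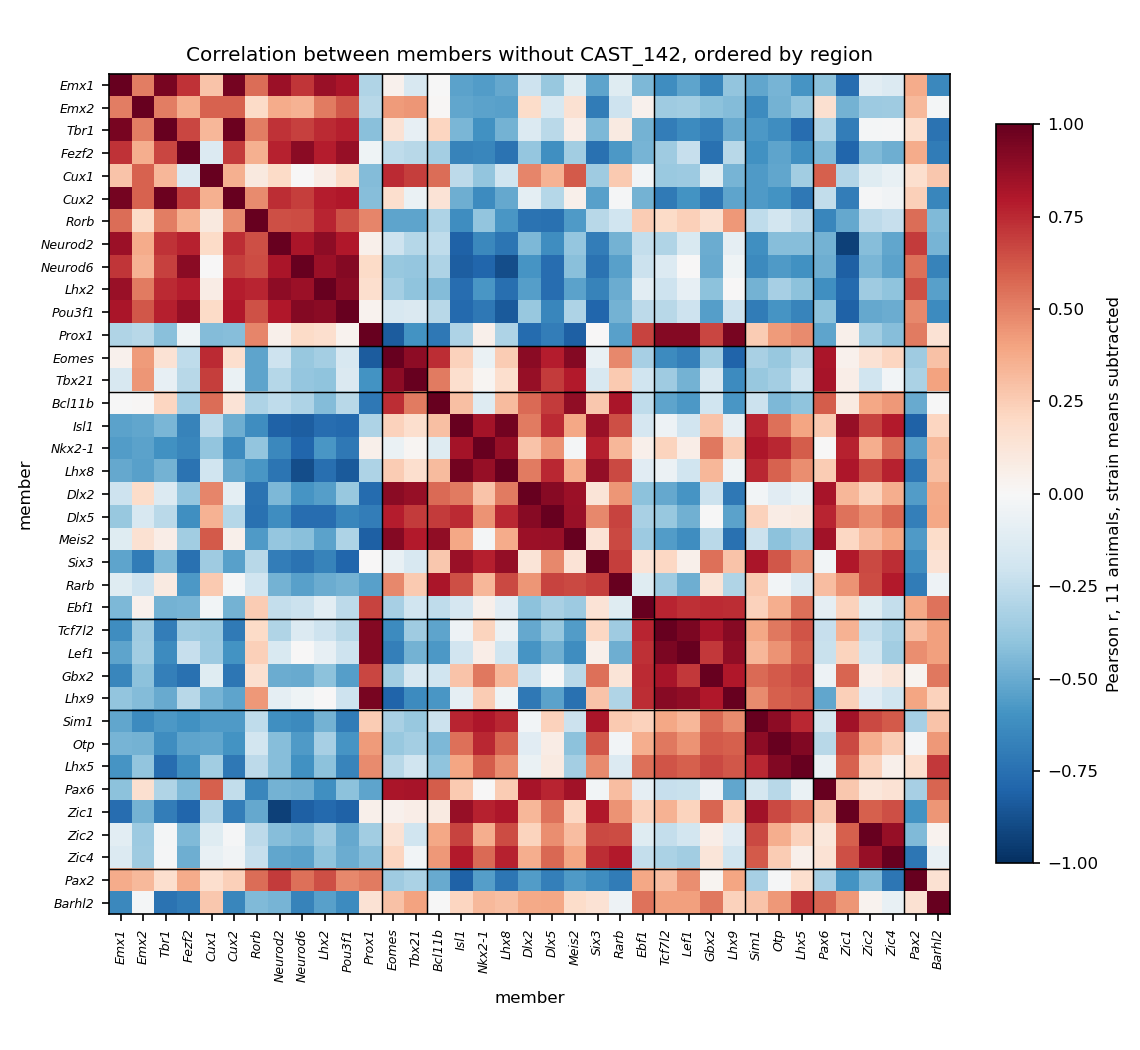
Pearson r between the 37 tested members over the 11 animals other than CAST_142, strain means subtracted, with genes ordered by region on both axes and lines between regions (red positive, blue negative). Red squares along the diagonal mark regions whose members moved together, and Prox1, placed with cortex and hippocampus, is red against the thalamic members.

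The regions differed in how far this rested on CAST_142. Striatal pairs had a median r of 0.83 with it and 0.48 without it, and cerebellar granule cell pairs 0.87 and 0.43. Thalamic pairs had 0.69 and 0.86, hypothalamic pairs 0.52 and 0.89, and cortical pairs 0.48 and 0.61. The 1 midbrain and hindbrain pair had r of 0.68 with CAST_142 and 0.15 without it. The 1 olfactory bulb pair had 0.65 and 0.90. Isl1 and Lhx8 had the highest r of any pair, 0.99, and 0.97 without CAST_142. Isl1 and Zic1 turned from -0.74 to 0.87 when CAST_142 was left out. The mean deviations of cortex and striatum went from -0.16 to -0.86, and those of striatum and cerebellar granule cells from -0.70 to 0.87.

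A few members, and without CAST_142 the cerebellar granule cell group, moved with another region than the one they were placed in. Prox1, placed with cortex and hippocampus, had r of 0.95 with Lhx9, 0.90 with Tcf7l2 and 0.86 with Lef1, and 0.92 to 0.95 with these 3 without CAST_142. Ebf1, placed with striatum, had r of -0.87 with Bcl11b and 0.91 with Zic1 over the 12 animals. Without CAST_142 these were -0.25 and 0.23, and its r with the 4 thalamic members was 0.73 to 0.77. Pax6 had r of 0.86 with Eomes, and 0.41 without CAST_142 and WSB_100. Without CAST_142, the mean deviation of the cerebellar granule cell members had r of 0.87 with that of the striatal members. Its r with the cerebellum markers was -0.32. In the other 11 animals these members therefore did not follow the cerebellum markers.

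The mean deviation of a region's members followed that of its marker genes, which are not transcription factors, in most regions. Over 12 animals r was 0.94 in striatum, 0.92 in midbrain and hindbrain, 0.91 in thalamus, 0.89 in hypothalamus, 0.80 in cerebellum, 0.58 in cortex and 0.49 in olfactory bulb. Without CAST_142 it was 0.96 in hypothalamus, 0.94 in thalamus, 0.80 in midbrain and hindbrain, 0.69 in striatum, 0.67 in cortex and 0.59 in olfactory bulb. For cerebellum it was -0.32 without CAST_142, so that the relation there rested on that library. For olfactory bulb it was 0.03 without CAST_142 and WSB_100, so that it rested on WSB_100.

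For 1 pair in each region, the 2 tested members with most reads, r was tested within each strain (n = 6) by exact two-sided permutation. This gave 14 relations, whose 28 Pearson and Spearman p-values were adjusted together. By Pearson's r, 4 passed. Meis2 and Bcl11b in CAST had r of 0.99 (exact p = 0.00278, adjusted p = 0.0389) and rho of 1 (adjusted p = 0.0389), and 0.94 without CAST_142 and CAST_202, the 2 animals farthest from the median of Meis2. Cux2 and Tbr1 in WSB had r of 0.99 (exact p = 0.00556, adjusted p = 0.0389), rho of 0.94 (adjusted p = 0.0583) and r of 0.99 without WSB_138 and WSB_169. Tcf7l2 and Lef1 in WSB had r of 0.98 (exact p = 0.00556, adjusted p = 0.0389), rho of 0.94 (adjusted p = 0.0583) and r of 0.96 without WSB_169 and WSB_138. Eomes and Tbx21 in WSB had r of 0.99 (exact p = 0.00833, adjusted p = 0.0467), rho of 0.94 (adjusted p = 0.0583) and r of 0.90 without WSB_100 and WSB_138. In CAST that pair had r of 0.07 (exact p = 0.692, adjusted p = 0.775), and of 0.63 without CAST_142 and CAST_202. Zic1 and Zic2 in CAST had r of 0.98 (exact p = 0.0917, adjusted p = 0.160) and -0.10 without CAST_142 and CAST_203, so that this relation rested on those animals. Meis2 and Bcl11b in WSB had r of 0.94 (exact p = 0.0278, adjusted p = 0.0864), and of 0.33 without WSB_100 and WSB_120. Barhl2 and Pax2 in WSB had r of 0.12 (exact p = 0.861, adjusted p = 0.861), and of -0.86 without WSB_169 and WSB_100. Whether r differs between the strains was not tested.

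The protein-coding genes whose deviations were most like the mean of each region, over the 11 animals without CAST_142 and with a mean log2 CPM of at least 1, were Adcy1 for cortex and hippocampus (r = 0.98), Zmynd11 for olfactory bulb (0.97), Drd3 for striatum and ventral forebrain (0.97), Vangl1 for thalamus (0.98), Prmt2 for hypothalamus (0.96), Hexdc for cerebellar granule cells (0.95) and Pepd for midbrain and hindbrain (0.97). Each was picked as the highest r among many genes over only 11 animals, and how high r would reach by chance was not tested. The list is therefore not read as one of regional partners. The midbrain and hindbrain mean rests on 2 members, whose own r was 0.15 without CAST_142. Drd3 is a dopamine receptor of the ventral striatum and ranged from 0.582 CPM in WSB_120 to 6.14 CPM in WSB_100. Pmch, the precursor of melanin-concentrating hormone of lateral hypothalamic neurons, was the second for hypothalamus (0.96) and ranged from 0.0512 CPM in WSB_100 to 15.5 CPM in CAST_202.

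Other regional transcription factors, from a list of 99 genes placed by region, were mostly not called either. Of the 56 tested, 6 were higher in CAST and 0 lower, against 21.5% and 21.2% of all genes. At 0 reads were 12 of the 99. All of these but Atoh1 have their whole body inside other genes, so their lack of reads says nothing of their expression. At an unadjusted p under 0.05, 11 were higher and 1 lower, and DESeq2 called 8 higher and 0 lower. Without CAST_142 and WSB_100, 4 of 57 were higher and 0 lower. Nr2f1, a nuclear receptor that patterns caudal cortex, was at 39.4 to 45.0 CPM in CAST and 30.8 to 42.6 CPM in WSB (log2 difference 0.27 ± 0.07, adjusted p = 0.00851). Pou3f2, a POU factor of upper cortical layers, was at 38.8 to 63.1 CPM in CAST and 30.9 to 42.4 CPM in WSB (0.36 ± 0.11, adjusted p = 0.0180). Lmo1, a LIM-only protein placed with thalamus, had a log2 difference of 0.75 ± 0.19 (adjusted p = 0.00625). Pou4f1, the POU factor of the habenula, and Uncx, a homeodomain factor of cerebellar and midbrain neurons, were both highest in CAST_142 (4.93 and 20.9 CPM). Their log2 differences were 2.44 ± 0.89 (adjusted p = 0.0400) and 2.93 ± 1.01 (adjusted p = 0.0327), and the adjusted p was 0.184 and 0.372 without CAST_142 and WSB_100. In hypothalamus 0 of 6 tested genes were called (1 at an unadjusted p under 0.05, and 1 by DESeq2), and in midbrain and hindbrain 0 of 6 (0 at an unadjusted p under 0.05, and 0 by DESeq2).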

How the data were processed

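The authors deposited raw read counts per gene, in 24 files, 1 for each of 12 animals on lanes 5 and 6. TopHat2 2.1.1, HTSeq, cutadapt and DESeq2 are listed, without roles, in the submitters' processing notes. The genome build, annotation and strandedness the authors used were not given in any source used here. The 5 counters that name no gene were left out. Over the 12 animals, 11.1% to 16.5% of alignments fell in more than 1 feature. Alignments that were not unique were 15.6% to 16.1% in CAST animals and 17.0% to 17.5% in WSB animals, without overlap. Whether reads of both strains aligned equally well was not tested, so part of a strain difference in counts may not be one of expression. Of 53465 identifiers, 53360 are in GENCODE M21 (GRCm38), used for symbols and coordinates.

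The lanes of an animal were summed as repeat runs of 1 library: chi-square per degree of freedom between lanes was 1.09 to 1.40 over genes with at least 20 reads, and 3.53 to 84.6 between animals of a strain. Nothing in the labels says more of how the animals were raised or the brains collected, and p-values measure the spread between these 12 samples. The strain comparison used edgeR 4.0.16 under R 4.3.3 (TMM, default filter by strain, robust quasi-likelihood test, Benjamini-Hochberg over 18425 genes, adjusted p under 0.05). The SE is the log2 difference over the square root of F. Alternatives were RLE and upper-quartile scaling, no filter, DESeq2 1.42.0, each lane alone, each animal left out, and CAST_142 and WSB_100 left out. The fit was also run on simulated counts, drawn for each gene on its own. No animal in them had a shifted regional profile, so they cannot show how the fit handles libraries such as CAST_142 or WSB_100. For correlations, CPM were put on a log2 scale (prior count 2).

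Described in full are called members and, in each region, the member with most reads; of the 99 other factors, up to 2 called genes of smallest p per region, of which 1 is not reported here. Further members and pairs were picked after their values were seen. The members, their regions and all lists were chosen with earlier results of these data known. Promoter windows and their build come from RefSeq.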

Additional observations from a re-analysis of the deposited data

Results flagged for a closer look

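In 23 of 78 groups (39 members with reads in 2 strains of 6), the highest or lowest animal lay farther from the others than Dixon's 95% critical value for the gap as a share of the range, where chance gives about 1 group in 20. CAST_142 was that animal in 11 groups, with CPM of Neurod2 at 114, Eomes at 13.3, Ebf1 at 41.5, Lhx5 at 12.1, Pax6 at 50.1, Zic1 at 167, Zic2 at 115, Zic4 at 32.6, Pax2 at 6.71, En1 at 3.32 and Barhl2 at 21.6. In 10 of them it was high for genes placed outside cortex, and in 1 for a cortical gene. WSB_100 was so in 4 groups, with CPM of Eomes at 25.8, Tbx21 at 8.63, Meis2 at 439.5 and Pax6 at 29.3. WSB_120 stood apart for Pax2 at 1.72 and Hoxb3 at 0.455 CPM, and WSB_138 for En1 at 0.724 CPM. CAST_201 stood apart for Neurod6 at 73.9 and Pou3f1 at 41.5 CPM, CAST_202 for Cux1 at 61.0 and Otp at 7.44 CPM and CAST_203 for Tbx21 at 1.06 CPM. The rule was applied to CPM and not to log2 values, on which other animals can stand apart, and its chance rate assumes normal values. The share of all tested genes that the rule would flag is not given here, so the count is not read as a trait of the members. Hoxb3 rests on 18 reads in WSB_120. The marker sums given above for cerebellum, striatum and olfactory bulb moved in the same libraries, and their part was not tested.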

How the results depend on the processing

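The members higher in CAST numbered 2 in the fit reported, and 1 with no filter on low counts and 1 on lane 5 alone. The members lower in CAST numbered 0, and 1 with DESeq2 (Tbx21). Leaving out each animal in turn gave 1 to 3 members higher and 0 to 1 lower, and 7313 to 8726 of all genes called, against 7866. The count of all genes called was 8253 with DESeq2, 7864 with RLE and 7899 with upper-quartile scaling, 9066 with no filter, 6617 and 6567 on lanes 5 and 6 alone, and 8624 without CAST_142 and WSB_100. Of 695 recomputed values of single members (those tested under a setting), 681 stayed on their side of the threshold, 8 lost the call and 6 gained it. The sign changed under at least 1 setting for 18 members, none of them called. The cause of these changes was not tested. The median r over same-region pairs was 0.61 to 0.67 and over different-region pairs -0.21 to -0.17 under the alternatives. No paired analysis was possible because the animal numbers are not shared between strains. Depth limits the low members: 3 reads correspond to 0.0638 to 0.0905 CPM.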
